A study of Homo sapiens with 15 samples.

Results

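The genes described are 10 that encode channels, or subunits of channels, through which potassium leaves a heart muscle cell and ends its action potential. They are KCNA5, KCND3, KCNIP2, KCNH2, KCNQ1, KCNE1, KCNJ2, KCNK3, KCNN2 and KCNN3, taken by symbol from a count table of 58780 annotated genes in 15 libraries. Each had 1 row, and all 10 passed the filter on low counts. The cells were atrial cardiomyocytes made from H7, an established human embryonic stem cell line, with a retinoid and retinoic acid to steer them to the atrial fate, and their spheroids were dissociated at day 17. Each of 5 groups had 3 libraries. The groups were cells given siRNA-1 against ATRNL1, cells given siRNA-2 against ATRNL1, cells given a scramble siRNA, cells transduced with a lentivirus that encodes ATRNL1's short isoform (the ATRNL1 lentivirus), and cells given a control lentivirus. Per the labels' protocols, transduced cells were selected with puromycin. All groups had the genotype given as wild type and came from the same single cell line. The labelled growth protocol breaks off after that day, and when the cells were treated and harvested is not known here. The labels do not state whether libraries of a group are separate cultures, and the p-values therefore cover the spread among these libraries only, which could be technical. ATRNL1 codes for a membrane protein of the attractin family, and the design asks how lowering or raising it changes gene expression in these cells.

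An action potential in the heart opens with inward sodium and calcium current and is ended by outward potassium current through several channel families that act at different times. KCND3 with its partner KCNIP2 carries the early transient outward current, KCNA5 the ultrarapid delayed rectifier current that is a hallmark of human atrium, KCNH2 the rapid and KCNQ1 with KCNE1 the slow delayed rectifier current. KCNJ2 carries inward rectifier current that finishes repolarization and sets the resting potential, KCNK3 a background current through a two-pore-domain channel, and KCNN2 and KCNN3 currents through small-conductance channels that open when calcium binds calmodulin.

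Total counts per library ran from 37078568 to 108663135. ATRNL1 averaged 9.16 CPM (counts scaled to a common library size, with TMM factors) in siRNA-1 cells, 4.99 CPM in siRNA-2 cells and 15.3 CPM in scramble cells, a log2 fold change of -0.74 for siRNA-1 and -1.61 for siRNA-2. It averaged 763 CPM in ATRNL1 lentivirus cells and 28.0 CPM in control lentivirus cells, and the count does not part vector transcripts from the cells' own. By group mean, all 8 cardiomyocyte markers and 6 of 8 atrial markers exceeded 1 CPM in every group. TNNT2, cardiac troponin T, lay between 2528 and 3904 CPM over all 15 libraries. The atrial light chain gene MYL7 lay between 1676 and 2637 CPM, TBX5 between 151 and 209 CPM and NPPA between 31.8 and 104 CPM. NR2F2 lay between 42.0 and 74.1 CPM, KCNJ3 between 16.4 and 42.2 CPM and MYBPHL between 4.71 and 10.3 CPM. The atrial genes SLN and NR2F1 stayed under 1 CPM. Of the ventricular markers, MYL2 lay between 1069 and 4233 CPM and IRX4 between 30.8 and 102 CPM, so genes of both chambers were present in every group. Markers of other cell types were present at lower levels. In each group, 8 of 9 smooth muscle and pericyte markers and 4 to 5 of 7 sinus node markers exceeded 1 CPM by group mean. These lists summed to 378 to 1093 CPM and to 435 to 791 CPM per library. Of the other lists, 5 of 8 fibroblast and 3 of 8 neural markers had means above 1 CPM in each group. So did 3 of 7 epicardial markers and 1 to 3 of 8 endothelial and endocardial markers. Their sums per library ran from 119 to 239 CPM for fibroblasts and from 20.9 to 50.8 CPM for the neural list. They ran from 15.8 to 68.9 CPM for epicardium and from 48.6 to 75.0 CPM for endothelium and endocardium. The fibroblast gene COL1A1 lay between 20.0 and 51.2 CPM and the epicardial gene WT1 between 2.41 and 10.3 CPM. The smooth muscle gene MYH11 lay between 1.27 and 3.28 CPM, whereas PECAM1, DCN and STMN2 stayed under 1 CPM. None of the 6 pluripotency markers exceeded 1 CPM.

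Levels between genes were compared per length, as TPM, in which counts are divided by annotated exon length and scaled to the same total in every library. KCNH2 had the highest level of the 10 genes in every group, at 76.4 ± 5.36 TPM in siRNA-1 cells, 75.8 ± 3.03 TPM in siRNA-2 cells, 82.7 ± 5.18 TPM in scramble cells, 39.9 ± 5.37 TPM in ATRNL1 lentivirus cells and 37.2 ± 1.56 TPM in control lentivirus cells (SD, n = 3 each). It made up 35.5% to 57.0% of the summed TPM of the 10 genes in a library. KCNQ1 came next in siRNA-2 and scramble cells (33.2 and 33.3 TPM), followed by KCNN2 (26.3 and 25.1 TPM). In siRNA-1 cells the order of these genes was the other way round, with KCNN2 at 24.1 TPM and KCNQ1 at 18.1 TPM. In both lentiviral groups KCNN2 was second (26.0 TPM with the ATRNL1 lentivirus, 21.8 TPM with the control lentivirus) and KCNJ2 next (14.9 and 10.5 TPM), ahead of KCNQ1 (12.9 and 8.16 TPM). KCNJ2 and KCNQ1 overlapped in the ATRNL1 lentivirus libraries and not in the control lentivirus libraries. KCNJ2 lay between 5.65 and 9.66 TPM in the siRNA-1, siRNA-2 and scramble libraries. KCNK3 and KCNA5 lay between 2.01 and 7.97 TPM, and their libraries overlapped in scramble and ATRNL1 lentivirus cells. KCNE1 and KCNIP2 lay between 0.416 and 2.79 TPM and did not overlap in either lentiviral group. The KCNE1 level leaves out reads counted to its near-identical copy KCNE1B, described below. KCND3 and KCNN3 lay lowest, between 0.185 and 0.756 TPM, and parted from each other only in siRNA-2 cells, while KCND3 also overlapped KCNIP2 in control lentivirus cells. These low genes rest on few reads: 24 to 120 counts per library for KCND3, 16 to 108 for KCNIP2 and 40 to 161 for KCNN3, against 2500 to 13553 for KCNH2.

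**Figure D1:**
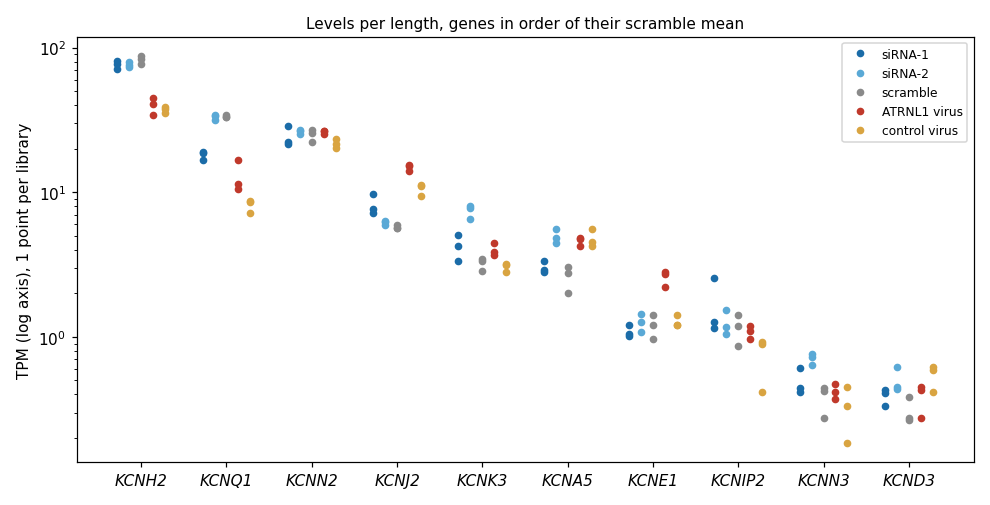
Level of each gene in TPM on a log axis, 1 point per library, coloured by group, with genes ordered by their mean in scramble cells. KCNH2 is the highest in all 5 groups, KCNQ1 and KCNH2 sit lower in the lentiviral groups, and KCNJ2 sits higher there.

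Across the comparisons the 10 genes did not move as a block. With siRNA-1, KCNJ2 rose and KCNQ1 fell, and the other 8 did not pass the test. These 2 of 10 (20%) stand beside 9.61% of all 24659 genes tested, of which 5.85% rose and 3.76% fell. With siRNA-2, KCNK3, KCNA5 and KCNN3 rose and KCNH2 fell, 4 of 10 genes (40%) beside 18.1% of all genes, 9.64% that rose and 8.48% that fell. With the ATRNL1 lentivirus, KCNE1, KCNQ1 and KCNJ2 rose and none fell, 3 of 10 (30%) beside 37.1% of all genes, 19.1% that rose and 18% that fell. The median log2 fold change of the 10 genes was 0.25 for siRNA-1, -0.03 for siRNA-2 and 0.33 for the ATRNL1 lentivirus, where the medians of all genes tested were -0.01, 0.00 and 0.00. The siRNA groups share the scramble libraries, so their values are given side by side and also compared directly with each other. Between siRNA-2 and siRNA-1 cells, 3 of the 10 genes were higher and 1 lower in siRNA-2 cells, beside 10.1% of all genes, of which 4.53% were higher and 5.6% lower. These are bulk libraries, in which fewer cells of a type and less RNA per cell cannot be told apart. A gene was called at an adjusted p under 0.05, by the quasi-likelihood test of edgeR and the Benjamini-Hochberg method over all genes tested, which gave every adjusted p below.

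**Figure D2:**
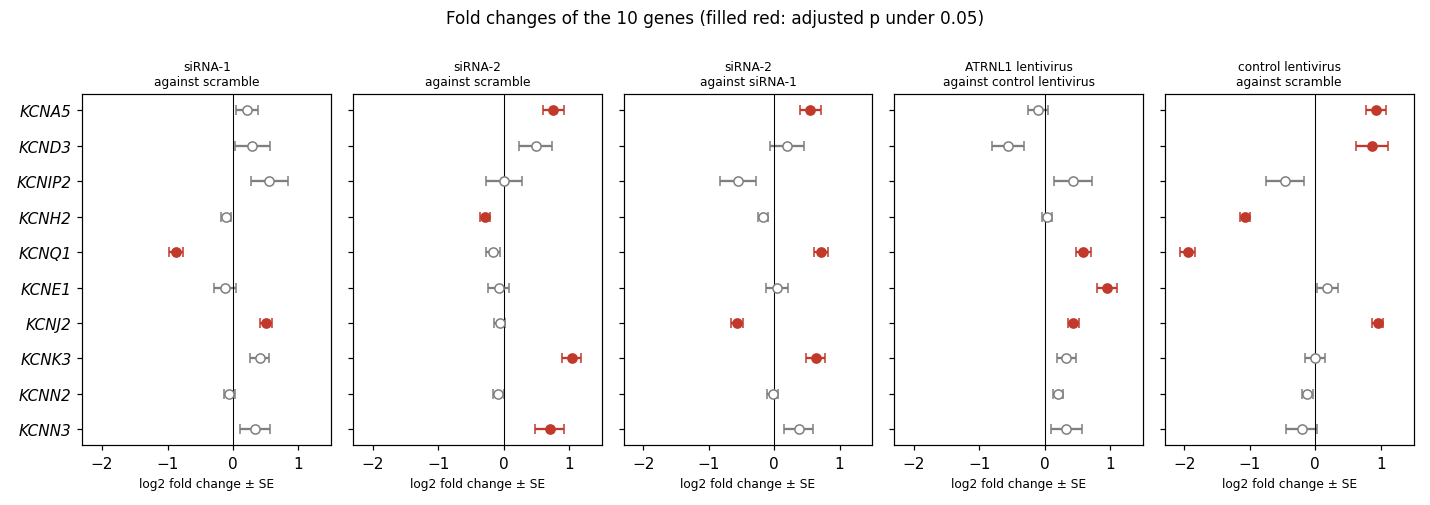
Log2 fold change with its standard error (SE) for each of the 10 genes in 5 comparisons, with filled red points for an adjusted p under 0.05. KCNQ1 and KCNJ2 are called with siRNA-1 and 4 other genes with siRNA-2, and the widest changes, of KCNQ1 and KCNH2, stand between the control lentivirus and the scramble siRNA.

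The promoters of KCNJ2, KCNK3 and KCNA5 are shown because these are the genes that rose in siRNA cells and have a single start in the RefSeq table (GRCh38.p14). Each run ends at the base before the RefSeq start or, for KCNK3, before the first base of its annotated first exon, on the plus strand, with matches to the GC box (GGGCGG or its reverse complement CCGCCC) in capitals. They cover chr17:70169282-70169531 for KCNJ2, chr2:26692472-26692689 for KCNK3 and chr12:5043629-5043878 for KCNA5.
KCNJ2: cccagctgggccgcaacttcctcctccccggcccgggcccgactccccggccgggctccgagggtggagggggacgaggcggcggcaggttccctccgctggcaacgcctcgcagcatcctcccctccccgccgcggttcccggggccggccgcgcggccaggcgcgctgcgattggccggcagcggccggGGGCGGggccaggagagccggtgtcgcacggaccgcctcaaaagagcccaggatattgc
KCNK3: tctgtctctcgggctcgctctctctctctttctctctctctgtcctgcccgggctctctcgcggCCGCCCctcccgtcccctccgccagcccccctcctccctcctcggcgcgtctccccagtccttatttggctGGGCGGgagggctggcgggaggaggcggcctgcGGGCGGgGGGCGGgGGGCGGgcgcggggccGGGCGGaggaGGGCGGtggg
KCNA5: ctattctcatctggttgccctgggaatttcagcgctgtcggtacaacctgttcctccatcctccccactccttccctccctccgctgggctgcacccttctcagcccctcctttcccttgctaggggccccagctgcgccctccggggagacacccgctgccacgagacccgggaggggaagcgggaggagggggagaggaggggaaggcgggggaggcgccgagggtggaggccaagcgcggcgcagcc
The KCNK3 run held 7 matches, the KCNJ2 run 1 and the KCNA5 run 0. The table held 9 of the 10 genes, with 20 windows of 250 bases, and 5 of the 9 had a GC box in their most upstream window, against 42.6% of all 35116 windows. G and C made up a median of 71.2% of those 9 windows, against 58.0% over all windows. Of further motifs searched on both strands, the core promoter box spelled TATAAA is held by 10.7% of all windows, the E-box spelled CACGTG by 6.34%, the T-box element spelled AGGTGT by 9.57% and the site of cardiac zinc finger factors spelled AGATAA by 9.17%. None of these had a match in the 9 most upstream windows. The core of the cyclic AMP response element, spelled TGACGT and held by 7.10% of all windows, had a match in the most upstream window of KCNE1 and in that of no other of the 9 genes. A match is a description of letters, and the data do not bear on binding.

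KCNA5 (ENSG00000130037.4, chr12:5043989-5046788 in GRCh38, plus strand) encodes the pore of the ultrarapid delayed rectifier. It stood at 3.45, 3.06 and 2.68 CPM in siRNA-2 cells, against 1.91, 1.39 and 2.08 CPM in scramble cells. All 3 siRNA-2 libraries lay above all 3 scramble libraries, a rise of 0.76 in log2 units (SE 0.15, adjusted p = 0.000751). Set against a single scramble library, the adjusted p was 0.0652 for library 1 and 0.0721 for library 3. The siRNA-1 libraries, at 2.19, 1.96 and 2.12 CPM, overlapped the scramble libraries, with a log2 fold change of 0.21 (SE 0.16, adjusted p = 0.522). The direct difference, siRNA-2 over siRNA-1, was 0.55 (adjusted p = 0.0238), and it lost its call when any of 5 of the 6 siRNA libraries was left out (adjusted p 0.0547 to 0.135). In ATRNL1 lentivirus cells the gene stood at 3.03, 3.34 and 3.31 CPM, against 3.22, 3.15 and 4.11 CPM in control lentivirus cells. Those groups overlapped, and the log2 fold change was -0.10 with an interval of 2 SE from -0.39 to 0.19.

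Of the other Kv1 and Kv2 channel genes and their beta subunits, 8 of 11 were tested. None passed with siRNA-1, 3 rose and 1 fell with siRNA-2, and 2 rose with the ATRNL1 lentivirus, with median log2 fold changes of -0.06, 0.40 and -0.05. With siRNA-2, KCNA4, a transient outward channel gene, averaged 1.86 ± 0.41 CPM against 1.13 ± 0.156 CPM in scramble cells (log2 fold change 0.75), and the beta subunit gene KCNAB1 averaged 7.71 ± 0.607 CPM against 11.5 ± 1.94 CPM (-0.58). KCNA7 averaged 1.81 ± 0.209 CPM with the ATRNL1 lentivirus against 0.56 ± 0.129 CPM with the control lentivirus (1.65).

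KCND3 (ENSG00000171385.9, chr1:111770662-111989155, minus strand) and KCNIP2 (ENSG00000120049.19, chr10:101825974-101843920, minus strand) encode the Kv4.3 pore and its calcium-binding partner KChIP2. Neither passed the test for siRNA-1, siRNA-2 or the ATRNL1 lentivirus. KCND3 stood at 0.498, 0.953 and 0.866 CPM in ATRNL1 lentivirus cells, against 1.23, 1.21 and 0.863 CPM in control lentivirus cells. Control lentivirus library 3 lay below 2 of the ATRNL1 lentivirus libraries. The log2 fold change was -0.57 (SE 0.24, adjusted p = 0.0712), and it was called without ATRNL1 lentivirus library 2 (-0.76, adjusted p = 0.027) or without control lentivirus library 3 (-0.68, adjusted p = 0.0429). Without ATRNL1 lentivirus library 1 it was -0.29 (adjusted p = 0.376). In siRNA-2 cells KCND3 stood at 0.761, 0.799 and 1.05 CPM, against 0.521, 0.529 and 0.740 CPM in scramble cells, which did not overlap (0.49, adjusted p = 0.204). KCNIP2 had its highest value, 1.96 CPM, in siRNA-1 library 3, while the other siRNA-1 libraries were at 1.15 and 0.982 CPM and the scramble libraries at 1.19, 0.992 and 0.722 CPM (0.56, SE 0.28, adjusted p = 0.25). The antisense gene KCNIP2-AS1 overlaps 12.2% of the KCNIP2 exon bases and never exceeded 0.205 CPM.

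Among 12 Kv4 relatives and accessory subunits, 3 rose with siRNA-1 and 6 with siRNA-2, and none fell with either. The medians were 0.50 and 0.71. In ATRNL1 lentivirus cells 2 rose and 1 fell (median -0.27). DPP10, which encodes a Kv4 accessory protein, averaged 12.2 ± 2.01 CPM in siRNA-1 cells and 4.58 ± 0.897 CPM in scramble cells (log2 fold change 1.43, adjusted p = 5.11e-08). KCNIP3, a relative of KCNIP2, averaged 1.84 ± 0.0282 CPM in siRNA-2 cells and 0.904 ± 0.14 CPM in scramble cells (1.04). KCNIP4, another relative, averaged 33.8 ± 5.64 CPM in ATRNL1 lentivirus cells and 13.9 ± 1.69 CPM in control lentivirus cells (1.27, adjusted p = 1.74e-10). KCNV1, which encodes a silent subunit that modifies other channels, rose with siRNA-1 (11.6 ± 0.914 CPM, against 6.15 ± 1.19 CPM in scramble cells) and with the ATRNL1 lentivirus (18.7 ± 2.51 CPM, against 10.5 ± 0.707 CPM in control lentivirus cells).

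**Figure D3:**
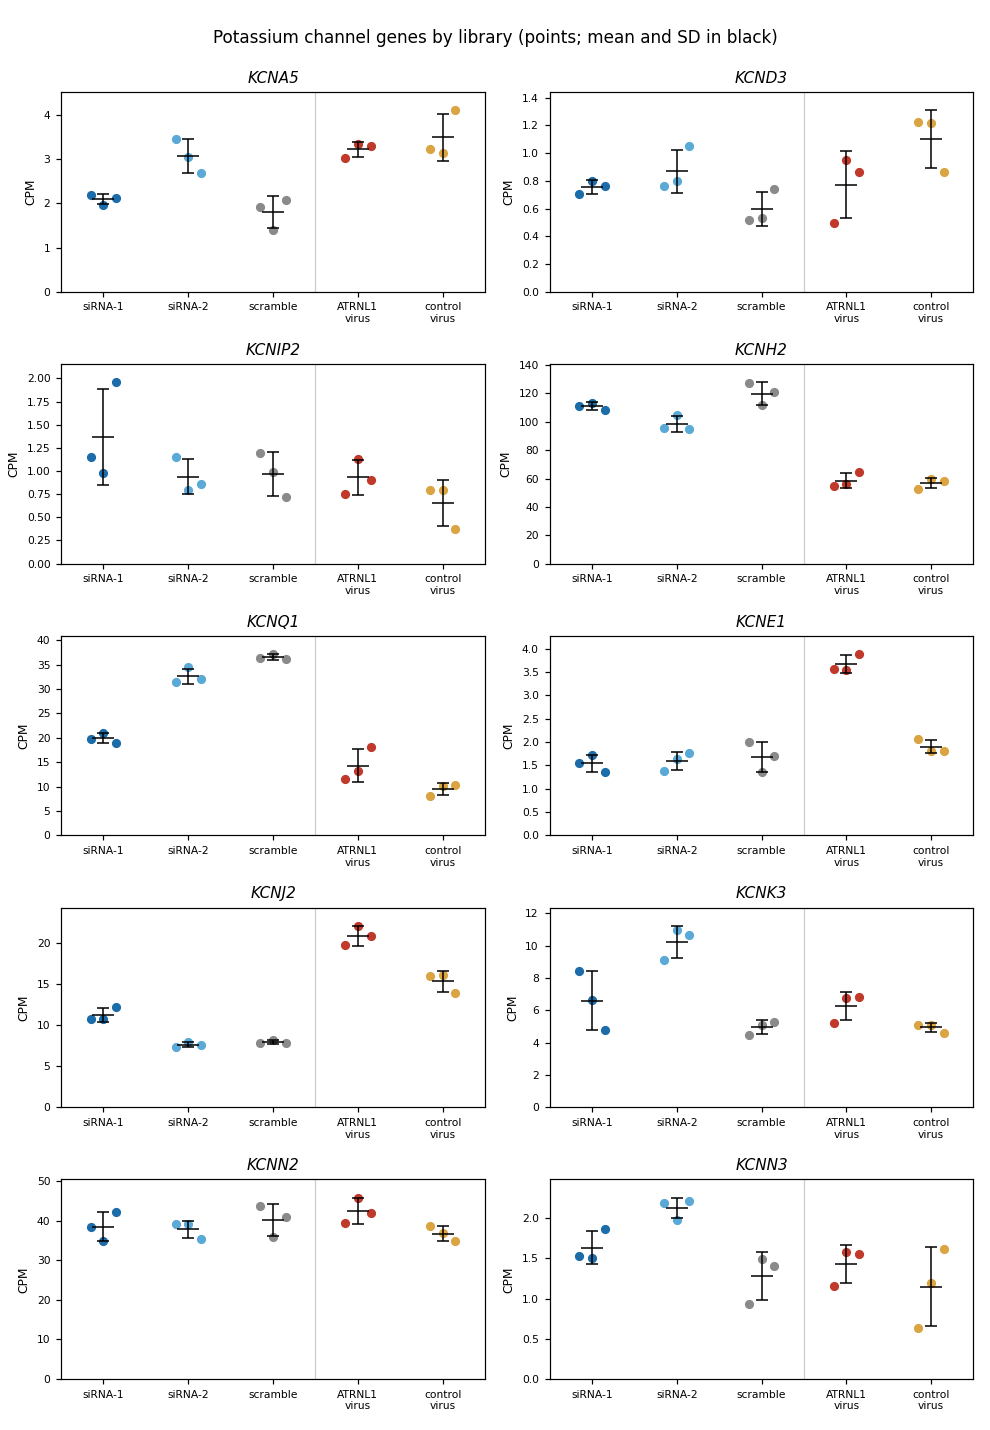
CPM of each of the 10 genes in every library, with points coloured by group and the mean and SD in black; the vertical line parts the siRNA groups from the lentiviral groups, and each panel has its own axis from 0. KCNQ1 is low in siRNA-1 cells beside the other siRNA groups, KCNK3 is high in siRNA-2 cells, and KCNE1 is high in ATRNL1 lentivirus cells.

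KCNH2 (ENSG00000055118.14, chr7:150944961-150978315, minus strand) encodes hERG, the pore of the rapid delayed rectifier. It stood at 95.8, 105 and 94.9 CPM in siRNA-2 cells, against 127, 112 and 121 CPM in scramble cells. In CPM all siRNA-2 libraries lay below all scramble libraries, and the gene fell by 0.28 in log2 units (SE 0.07, adjusted p = 0.00706), a change of -17.8%. In TPM these groups overlapped, at 73.1 to 79.1 TPM in siRNA-2 cells and 77.0 to 87.2 TPM in scramble cells. Set against scramble library 2 alone the change was -0.18 (adjusted p = 0.311), and against library 3 alone -0.29 (adjusted p = 0.0804). In siRNA-1 cells it stood at 111, 114 and 108 CPM, overlapping scramble (-0.11, adjusted p = 0.424). The direct difference, siRNA-2 over siRNA-1, was -0.17 (adjusted p = 0.16), without overlap in CPM. It was called when only the groups compared entered the fit (-0.17, adjusted p = 0.0106). With the ATRNL1 lentivirus it stood at 54.7, 56.4 and 64.5 CPM, against 52.9, 59.5 and 58.3 CPM with the control lentivirus. Those libraries interleaved, and the log2 fold change of 0.04 had an interval of 2 SE from -0.11 to 0.19.

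KCNQ1 (ENSG00000053918.16, chr11:2444684-2849110, plus strand) encodes the pore of the slow delayed rectifier. It stood at 19.8, 21.1 and 19.0 CPM in siRNA-1 cells, against 36.3, 37.2 and 36.2 CPM in scramble cells. The groups were far apart beside their spread, and KCNQ1 fell by 0.87 in log2 units (SE 0.11, adjusted p = 6.31e-06), a change of -45.5%. In siRNA-2 cells it stood at 31.5, 34.4 and 32.1 CPM. Those libraries also lay below scramble, but the change of -0.16 did not pass the test (SE 0.11, adjusted p = 0.334). Between the siRNA groups the log2 difference, siRNA-2 over siRNA-1, was 0.71 (SE 0.11, adjusted p = 7.12e-05). ATRNL1 itself was lower in siRNA-2 than in siRNA-1 cells (-0.87). KCNQ1 in ATRNL1 lentivirus cells stood at 11.7, 13.2 and 18.1 CPM, against 8.08, 10.0 and 10.2 CPM with the control lentivirus. It rose by 0.59 (SE 0.11, adjusted p = 0.000187), and ATRNL1 lentivirus library 3 stood above the others of its group. Every library of both lentiviral groups stayed below every scramble library. These calls held under every alternative tried.

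KCNQ1OT1 is a long noncoding RNA that runs antisense within KCNQ1 and shares 121 exon bases with it, 2.72% of the KCNQ1 exon bases. Whether counting used strand is not known here, and reads in the shared bases cannot be told apart. KCNQ1OT1 stood at 65.8, 71.5 and 73.8 CPM in siRNA-1 cells, against 95.7, 85.5 and 86.7 CPM in scramble cells. It fell with siRNA-1 by 0.34 on the log2 scale (adjusted p = 0.0095). It did not pass with siRNA-2 (0.03, adjusted p = 0.859) or with the ATRNL1 lentivirus (-0.03, adjusted p = 0.812), where KCNQ1 rose. KCNQ1-AS1, another antisense gene, stayed under 0.13 CPM and KCNQ1DN under 0.04 CPM, and neither was tested.

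KCNE1 (ENSG00000180509.11, chr21:34446688-34512275, minus strand) encodes the single-pass subunit that slows and enlarges the current through KCNQ1. It stood at 3.57, 3.55 and 3.89 CPM in ATRNL1 lentivirus cells, against 2.06, 1.81 and 1.82 CPM in control lentivirus cells. Every ATRNL1 lentivirus library lay above every control library, a rise of 0.95 in log2 units (SE 0.15, adjusted p = 1.5e-05). In siRNA-1 cells it stood at 1.55, 1.73 and 1.36 CPM and in siRNA-2 cells at 1.37, 1.64 and 1.76 CPM, against 2.00, 1.36 and 1.69 CPM in scramble cells. All 3 groups overlapped (-0.12 and -0.08, adjusted p = 0.761 and 0.817). KCNE1 is uncertain because GRCh38 holds a near-identical copy, KCNE1B, on the same chromosome: 55.2% of the 50-letter words in KCNE1 transcripts also occur in KCNE1B, and 87.8% of those in KCNE1B occur in KCNE1. KCNE1B held 3.20, 3.86 and 3.21 CPM in ATRNL1 lentivirus cells, against 1.90, 1.59 and 1.61 CPM in control lentivirus cells, close to the KCNE1 values in each group. With the counts of both summed, an alternative chosen after seeing the data, the rise was 0.98 (SE 0.11, adjusted p = 9.00e-08).

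**Figure D4:**
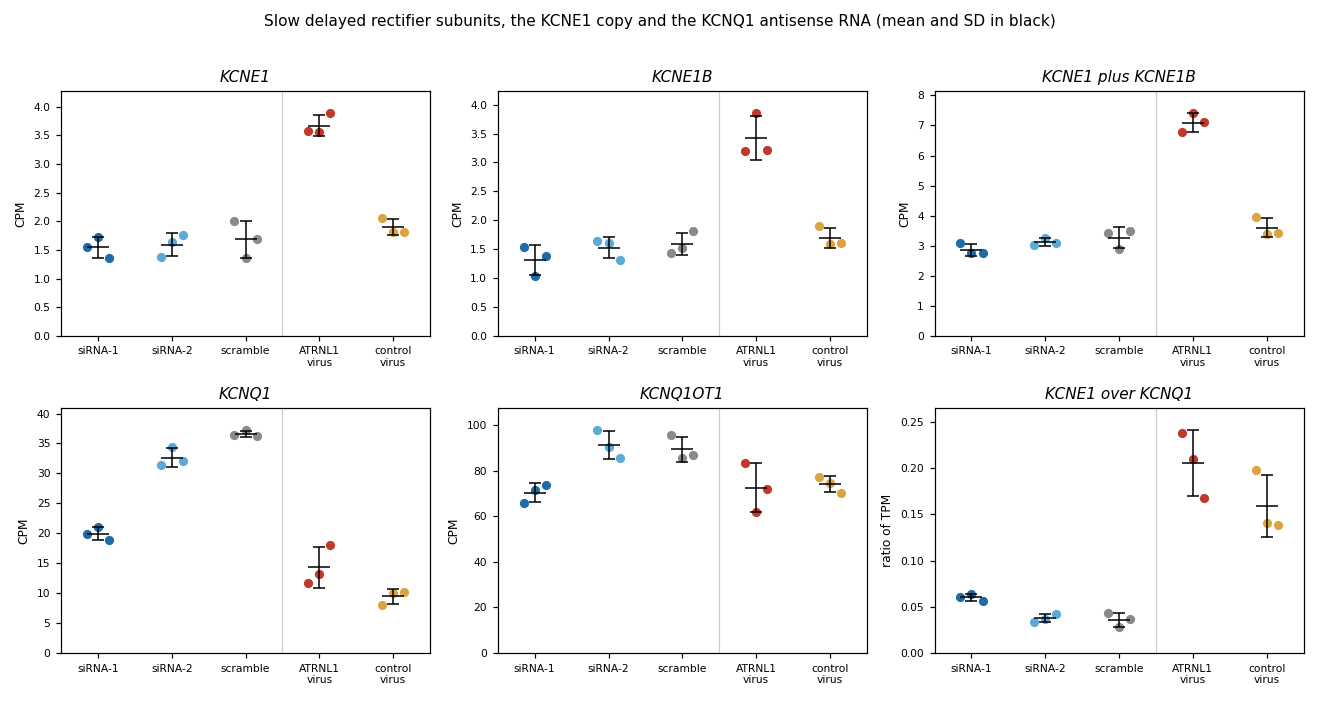
Upper panels give KCNE1, its copy KCNE1B and their sum in CPM; lower panels give KCNQ1 and its antisense RNA KCNQ1OT1 in CPM and the ratio of KCNE1 to KCNQ1 in TPM, by library with the mean and SD in black. KCNE1 and KCNE1B both rise with the ATRNL1 lentivirus, while the ratio separates the lentiviral groups from the siRNA groups.

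The ratio of KCNE1 to KCNQ1 in TPM described the balance of these transcripts. The ratio used the KCNE1 count alone, although its reads cannot be fully parted from those of KCNE1B. It was 0.0601 ± 0.00405 in siRNA-1 cells, 0.0380 ± 0.00446 in siRNA-2 cells and 0.0359 ± 0.00723 in scramble cells (SD, n = 3 each). The siRNA-1 libraries did not overlap the scramble libraries, and the siRNA-2 libraries did. The ratio was 0.205 ± 0.0357 in ATRNL1 lentivirus cells and 0.159 ± 0.0339 in control lentivirus cells, which overlapped. The ratio of KCNQ1 to KCNH2, slow over rapid pore, was 0.238 ± 0.00734 in siRNA-1 cells, 0.438 ± 0.00727 in siRNA-2 cells and 0.404 ± 0.0328 in scramble cells. It was 0.320 ± 0.0455 in ATRNL1 lentivirus cells and 0.219 ± 0.0155 in control lentivirus cells, without overlap. Being ratios of single transcripts, these values carry no test.

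Of 15 other KCNQ and KCNH genes and KCNE subunits, 13 were tested. With siRNA-1 3 rose, with siRNA-2 2 rose, and with the ATRNL1 lentivirus 4 rose and 2 fell, with medians of 0.06, 0.21 and 0.01. KCNQ3, a channel gene known from neurons, averaged 83.9 ± 13.7 CPM in ATRNL1 lentivirus cells and 28.7 ± 5.20 CPM in control lentivirus cells (log2 fold change 1.54, adjusted p = 3.80e-10). It also rose with siRNA-1, at 68.0 ± 8.58 CPM against 44.0 ± 7.24 CPM in scramble cells (0.63). KCNQ5 fell with the ATRNL1 lentivirus, at 47.5 ± 1.28 CPM against 78.7 ± 3.74 CPM (-0.73). KCNH7, a relative of KCNH2, averaged 48.9 ± 1.77 CPM in siRNA-2 cells and 37.3 ± 5.35 CPM in scramble cells (0.39).

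KCNJ2 (ENSG00000123700.4, chr17:70168673-70180048, plus strand) encodes Kir2.1, the main pore of the inward rectifier. It stood at 10.8, 10.7 and 12.2 CPM in siRNA-1 cells, against 7.84, 8.20 and 7.76 CPM in scramble cells. All siRNA-1 libraries were higher, a rise of 0.50 in log2 units (SE 0.09, adjusted p = 0.000308). In siRNA-2 cells it stood at 7.34, 7.95 and 7.51 CPM, overlapping scramble (-0.06, adjusted p = 0.715), and siRNA-2 over siRNA-1 was -0.57 (SE 0.09, adjusted p = 8.00e-05). With the ATRNL1 lentivirus it stood at 19.6, 22.0 and 20.7 CPM, against 15.9, 16.1 and 13.8 CPM with the control lentivirus. The gene rose there by 0.44 (SE 0.08, adjusted p = 0.000103), without overlap. KCNJ2 therefore passed the test in the same direction with siRNA-1 and with the ATRNL1 lentivirus, and these calls held under every alternative tried.

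The KCNJ2 promoter run above lies upstream of the RefSeq start but inside the annotated gene, in an intron of its transcript with the most upstream start, and the antisense gene KCNJ2-AS1 overlaps KCNJ2 by 185 exon bases. KCNJ2-AS1 stood at 1.45, 2.28 and 1.87 CPM in siRNA-1 cells, against 0.890, 1.16 and 0.971 CPM in scramble cells, and rose by 0.87 (adjusted p = 0.00699). With the ATRNL1 lentivirus it averaged 1.73 ± 0.388 CPM, against 1.98 ± 0.422 CPM with the control lentivirus (-0.22, adjusted p = 0.393), where KCNJ2 rose. Among 5 Kir2 relatives, none passed with siRNA-1, 2 rose with siRNA-2 and 3 rose with the ATRNL1 lentivirus (medians 0.21, 0.46 and 0.47). KCNJ4, which encodes Kir2.3, averaged 8.85 ± 1.05 CPM in siRNA-2 cells and 5.10 ± 0.305 CPM in scramble cells (0.80). KCNJ4 averaged 2.91 ± 0.732 CPM with the ATRNL1 lentivirus and 1.25 ± 0.107 CPM with the control lentivirus (1.21), and KCNJ12, which encodes Kir2.2, 3.19 ± 0.0788 and 2.31 ± 0.079 CPM (0.47). No 50-letter word of KCNJ2 occurred in KCNJ12, and the related KCNJ18 stayed under 0.07 CPM.

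KCNK3 (ENSG00000171303.6, chr2:26692690-26733420, plus strand) encodes TASK-1, an acid-sensitive background channel of human atrium. It stood at 9.08, 10.9 and 10.7 CPM in siRNA-2 cells, against 4.45, 5.09 and 5.28 CPM in scramble cells. The groups lay well apart, a rise of 1.04 in log2 units (SE 0.14, adjusted p = 7.55e-06), or 2.05-fold, that held under every alternative tried. The siRNA-1 libraries were spread, at 8.41, 6.62 and 4.75 CPM, with library 3 inside the scramble range. Their log2 fold change was 0.40 (SE 0.15, adjusted p = 0.0915). It was 0.18 (adjusted p = 0.606) without library 1 and 0.61 (adjusted p = 0.00454) without library 3. With no low-count filter it was 0.40 (adjusted p = 0.0178). The difference, siRNA-2 over siRNA-1, was 0.63 (adjusted p = 0.0042), and 0.42 (adjusted p = 0.0547) without siRNA-1 library 3. KCNK3 in ATRNL1 lentivirus cells stood at 5.23, 6.76 and 6.80 CPM, against 5.07, 5.11 and 4.62 CPM with the control lentivirus. Those libraries did not overlap, but the difference of 0.33 did not pass (SE 0.15, adjusted p = 0.0813). It passed without ATRNL1 lentivirus library 1 (0.46, adjusted p = 0.0253) and was 0.27 (adjusted p = 0.228) without library 2. It also passed with no low-count filter (0.34, adjusted p = 0.0203) and with only the groups compared (0.34, adjusted p = 0.0412).

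Only 4 of 13 other two-pore-domain genes were tested. None passed with either siRNA (medians 0.14 for siRNA-1 and -0.05 for siRNA-2), and 1 rose and 1 fell with the ATRNL1 lentivirus (median 0.05). KCNK1, which encodes TWIK-1, averaged 6.70 ± 1.20 CPM with the ATRNL1 lentivirus and 10.3 ± 0.548 CPM with the control lentivirus (log2 fold change -0.62), and KCNK6 averaged 5.35 ± 0.657 and 3.96 ± 0.251 CPM (0.43).

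KCNN2 (ENSG00000080709.15, chr5:114055545-114496500, plus strand) and KCNN3 (ENSG00000143603.18, chr1:154697455-154870280, minus strand) encode the small-conductance channels SK2 and SK3. KCNN2 varied least of the 10 genes, with group means from 36.7 to 42.4 CPM. It stood at 39.4, 45.8 and 41.9 CPM in ATRNL1 lentivirus cells, against 38.6, 36.9 and 34.7 CPM in control lentivirus cells. Each ATRNL1 lentivirus library was higher, but the difference of 0.20 lay just outside the threshold (SE 0.08, adjusted p = 0.0549). It was called under 5 alternatives, among them DESeq2 (0.23, adjusted p = 0.0492) and the fit without ATRNL1 lentivirus library 1 (0.27, adjusted p = 0.0244). It was 0.15 (adjusted p = 0.178) without library 2. It did not pass with siRNA-1 (-0.06, adjusted p = 0.767) or siRNA-2 (-0.08, adjusted p = 0.566). KCNN3 stood at 2.19, 1.98 and 2.21 CPM in siRNA-2 cells, against 0.934, 1.49 and 1.41 CPM in scramble cells. It rose by 0.71 (SE 0.22, adjusted p = 0.0266), but the adjusted p lay between 0.0559 and 0.0937 when either scramble library 1 or 3, or siRNA-2 library 1 or 3, was left out. With scramble library 2 or 3 as the sole control it was 0.334 or 0.257. In siRNA-1 cells it stood at 1.53, 1.5 and 1.87 CPM, just above scramble (0.33, adjusted p = 0.462). With the ATRNL1 lentivirus it overlapped the control (0.33, adjusted p = 0.296).

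KCNN1, another gene of the small-conductance family, averaged 9.56 ± 1.62 CPM in ATRNL1 lentivirus cells and 1.26 ± 0.309 CPM in control lentivirus cells. Its mean in scramble cells was 12.6 ± 0.947 CPM. Between the lentiviral groups its log2 fold change of 2.96 (SE 0.15, adjusted p = 7.49e-14) exceeded that of each of the 10 genes. It is one of 8 tested calcium-activated and sodium-activated relatives, of which 2 rose with siRNA-1, 3 with siRNA-2 and 2 with the ATRNL1 lentivirus, while 4 fell with the ATRNL1 lentivirus (medians 0.15, 0.31 and -0.36). KCNMB1, a beta subunit of the large-conductance channel, rose with siRNA-1 (8.63 ± 1.68 CPM) and siRNA-2 (10.4 ± 0.221 CPM), against 6.05 ± 0.883 CPM in scramble cells. KCNT2, a sodium-activated channel gene, rose with siRNA-1 (3.27 ± 0.451 CPM) and siRNA-2 (2.92 ± 0.231 CPM), against 1.86 ± 0.186 CPM in scramble cells. It fell with the ATRNL1 lentivirus, at 4.87 ± 0.365 CPM against 7.39 ± 0.711 CPM with the control lentivirus.

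Of 6 ventricular markers, 2 rose with siRNA-1, 3 rose and 1 fell with siRNA-2, and 5 rose and 1 fell with the ATRNL1 lentivirus, with median log2 fold changes of 0.08, 0.18 and 0.69. Their summed level, of which MYH7 and MYL2 made up most, was 7317 to 8816 CPM in siRNA-1 cells and 9927 to 10124 CPM in siRNA-2 cells, against 5663 to 6343 CPM in scramble cells. It was 14604 to 15870 CPM in ATRNL1 lentivirus cells, against 9213 to 10992 CPM in control lentivirus cells. The sum of 8 atrial markers was 1995 to 2603 CPM in siRNA-1 cells and 2362 to 2507 CPM in siRNA-2 cells, against 2215 to 2906 CPM in scramble cells, and 2348 to 2461 CPM in ATRNL1 lentivirus cells, against 2930 to 3052 CPM in control lentivirus cells. Of these atrial markers, 1 rose and 1 fell with siRNA-1, 2 fell with siRNA-2 and 3 fell with the ATRNL1 lentivirus. MYL7, which made up most of the sum, averaged 2023 CPM in ATRNL1 lentivirus cells and 2590 CPM in control lentivirus cells. NPPA averaged 99.5 and 95.1 CPM in these groups, and NR2F2 64.6 and 65.8 CPM. MYH6, the atrial heavy chain gene, is outside that list and averaged 2925 CPM in ATRNL1 lentivirus cells and 4521 CPM in control lentivirus cells. The smooth muscle and pericyte markers summed to 870 to 943 CPM in ATRNL1 lentivirus cells, against 1078 to 1093 CPM in control lentivirus cells, and the epicardial markers to 28.5 to 33.9 CPM, against 15.8 to 16.4 CPM. In the siRNA experiment the smooth muscle and pericyte sum was 442 to 618 CPM in siRNA-1 cells and 594 to 666 CPM in siRNA-2 cells. In scramble cells that sum was 378 to 564 CPM. The epicardial sum was 67.7 to 68.9 CPM in siRNA-1 cells and 53.8 to 68.6 CPM in siRNA-2 cells, against 50.3 to 58.6 CPM in scramble cells. Neural markers summed to 36.0 to 46.1 CPM in siRNA-1 cells and 34.8 to 35.2 CPM in siRNA-2 cells, against 20.9 to 22.3 CPM in scramble cells, and to 25.3 to 29.9 CPM in ATRNL1 lentivirus cells, against 46.3 to 50.8 CPM in control lentivirus cells. Of the 4 neural markers tested, 3 rose with each siRNA and 2 fell with the ATRNL1 lentivirus. The part of these markers in the channel gene changes was not tested. The ATRNL1 lentivirus libraries also varied more among themselves, with a median SD of 0.136 on the log2 CPM scale against 0.0473 to 0.0664 in the other groups.

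The control lentivirus and scramble groups differed by delivery, puromycin selection and any batch, which cannot be told apart. Between them 3 of the 10 genes were higher and 2 lower with the lentivirus, beside 63.6% of all genes called, 30.3% higher and 33.2% lower. ATRNL1 itself was higher in control lentivirus cells than in scramble cells (log2 fold change 0.87, SE 0.11, adjusted p = 8.53e-08). KCNQ1 stood at 8.08, 10.0 and 10.2 CPM in control lentivirus cells, against 36.3, 37.2 and 36.2 CPM in scramble cells (log2 fold change -1.95, SE 0.11, adjusted p = 7.90e-14). KCNH2 differed by -1.08 (adjusted p = 2.28e-12), KCNJ2 by 0.95 (adjusted p = 2.86e-10), KCNA5 by 0.93 (adjusted p = 8.07e-06) and KCND3 by 0.86 (adjusted p = 0.00361). Against scramble library 3 alone KCND3 differed by 0.58 and lost its call (adjusted p = 0.147). For KCNQ1 and KCNJ2 this gap between controls was wider than the change with the ATRNL1 lentivirus. With the ATRNL1 lentivirus KCNQ1 lay between its levels in the 2 control groups, whereas KCNJ2 lay further from scramble. On the first principal component, the axis of widest spread among libraries (58.4% of the variance), ATRNL1 lentivirus libraries lay at 44.6 to 64.1. Control lentivirus libraries lay at 99.3 to 110 there, and siRNA and scramble libraries at -68.0 to -45.0. The cause of this order was not tested. KCNE2, a subunit gene of the KCNE1 family, averaged 0.149 ± 0.0667 CPM in control lentivirus cells and 2.52 ± 0.841 CPM in scramble cells (-4.04), and KCNN1 1.26 ± 0.309 and 12.6 ± 0.947 CPM (-3.37). With the lentivirus 4 rose and 4 fell of the Kv1 and Kv2 list, 4 and 3 of the Kv4 list, 1 and 5 of the KCNQ, KCNH and KCNE list, 0 and 3 of the Kir2 list, 2 and 0 of the two-pore-domain list and 4 and 2 of the calcium-activated and sodium-activated list.

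The overexpression effect minus the mean effect of the siRNAs tested whether these effects on a gene differed, and a call can come from either effect alone. In this test 2 of the 10 genes were higher and 2 lower, beside 32% of all genes, 16.5% higher and 15.5% lower. KCNQ1 had a difference of 1.11 (SE 0.15, adjusted p = 1.5e-06) and KCNE1 of 1.05 (SE 0.21, adjusted p = 0.000267). KCNA5 had a difference of -0.59 (SE 0.20, adjusted p = 0.026) and KCND3 of -0.96 (SE 0.33, adjusted p = 0.028). Both lost the call under several alternatives, among them the fits without scramble library 2 (-0.43 and -0.86, adjusted p = 0.11 and 0.0681). KCNJ2 did not pass (0.22, SE 0.11, adjusted p = 0.145). Against their own controls, KCNE1 passed with the ATRNL1 lentivirus and with neither siRNA, and KCNA5 with siRNA-2 alone. KCND3 passed with neither siRNA nor the ATRNL1 lentivirus. KCNQ1 rose with the ATRNL1 lentivirus and fell with siRNA-1, but did not pass with siRNA-2.

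Proteins that bind, anchor, fold or degrade these channels were counted in a list of 23 genes, all tested. With siRNA-1 2 rose, with siRNA-2 2 rose and 4 fell, and with the ATRNL1 lentivirus 5 rose and 4 fell (medians 0.01, -0.09 and -0.03). SGK1, a kinase known to raise the surface level of several potassium channels, averaged 15.3 ± 1.3 CPM in siRNA-1 cells and 15.1 ± 1.94 CPM in siRNA-2 cells, against 11.9 ± 0.717 CPM in scramble cells, and 14.5 ± 1.99 CPM in ATRNL1 lentivirus cells, against 9.03 ± 0.954 CPM in control lentivirus cells. It passed in all 3 comparisons (0.36, 0.33 and 0.69). NEDD4L, a ubiquitin ligase that acts on KCNQ1, rose with the ATRNL1 lentivirus (182 ± 18.1 CPM against 112 ± 2.36 CPM, 0.71). CALM2 and CALM3, which encode calmodulin, fell with the ATRNL1 lentivirus (-0.64 and -0.50).

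Of 18 transcription factors listed as regulators of cardiac ion channel genes, all tested, 5 rose with siRNA-1, 4 rose and 2 fell with siRNA-2, and 11 rose and 4 fell with the ATRNL1 lentivirus (medians 0.12, -0.01 and 0.25). MEF2C averaged 66.7 ± 2.30 CPM in siRNA-2 cells and 98.7 ± 3.26 CPM in scramble cells (-0.57), and ETV1, a factor of fast-conducting atrial muscle, 43.9 ± 1.72 and 62.7 ± 5.12 CPM (-0.52). ETV1 also fell with the ATRNL1 lentivirus, at 128 ± 13.7 CPM against 198 ± 3.20 CPM with the control lentivirus (-0.63). KLF15 averaged 5.36 ± 0.853 CPM with the ATRNL1 lentivirus and 2.97 ± 0.46 CPM with the control lentivirus (0.83), and HEY2 84.4 ± 16.6 and 46.8 ± 1.38 CPM (0.85). Of the partner list 10 rose and 7 fell, and of the factor list 7 rose and 8 fell, with the control lentivirus against scramble. NKX2-5 stood at 38.9 ± 1.46 CPM with the lentivirus and 136 ± 10.3 CPM in scramble cells (-1.80).

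Correlations over the 15 libraries describe how the levels ran together. They share the 5 groups and the delivery split, and carry no test. KCNH2 and KCNQ1 ran together (Pearson r = 0.87 on log2 CPM), both against KCNJ2 (r = -0.85 for each), and KCNJ2 ran with KCNE1 (r = 0.78). KCNK3 ran most with KCNN3 (r = 0.63). Of 12645 protein-coding genes with a mean of at least 1 CPM, those most like KCNQ1 were SNX8 (r = 0.99), AEBP1 and PLXNA1 (r = 0.98 each). SNX8 averaged 7.01 CPM in siRNA-1 cells, 9.94 CPM in siRNA-2 cells, 10.5 CPM in scramble cells, 5.99 CPM in ATRNL1 lentivirus cells and 4.14 CPM in control lentivirus cells, the same order of groups as KCNQ1. Most like KCNJ2 were GPR137B (r = 0.99), PARP8 and RAB8B (r = 0.98 each), and most like KCNE1 were PREP, COL11A1 (r = 0.96 each) and HIVEP2 (r = 0.95).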

How the data were processed

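The authors deposited 1 table of raw, whole-number read counts per gene with 15 columns, without normalization. STAR 2.7.9a, DESeq2 1.30.1 and genome build GRCh 38 are named in the submitters' processing notes, which give their roles nowhere. How reads were counted, and whether by strand, is not given in the sources used here. Libraries were made after ribosomal RNA depletion per the labels' protocols, whereas the molecule label names polyA RNA. The table held 59429 rows. The 649 rows without a gene identifier held at most 0.00437% of the counts in any library and were excluded. Column names gave the group, and library numbers are those that end the column names. The title of 1 library in 4 of the 5 groups joins the numbers of the other titles, which the labels do not explain.

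Genes were filtered with filterByExpr by group (24659 kept) and scaled by TMM. In edgeR 4.0.16 (R 4.3.3), all 15 libraries entered 1 quasi-likelihood fit with a mean for each of 5 groups. The call threshold was an adjusted p of 0.05 (Benjamini-Hochberg). The script was tested on simulated data. SE is the size of the log2 fold change over the square root of F. TPM used merged exon lengths of GENCODE v29. Other named genes were, per list and comparison, up to 2 called genes with the largest rise and 2 with the largest fall at a mean of at least 1 CPM, of which the text gives some. The 10 genes and the lists were chosen with earlier results of these data known. Alternatives were RLE size factors, library size only, no low-count filter, DESeq2 1.42.0, only the groups compared, leaving out each library, each scramble library as the sole control, the summed KCNE1 copies, and a replicate block by column number.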

Additional observations from a re-analysis of the deposited data

How the results depend on the processing

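Of 980 log2 fold changes of the 10 genes recomputed under the alternatives, 922 stayed on their side of the threshold, 42 of them with a change of sign while called under neither setting. Another 32 kept their direction and lost the call, 26 kept it and gained the call, and 0 reversed. The number of genes called among the 10 was 4 with siRNA-2, and 2 or 1 with scramble library 2 or 3 as the sole control. It was 4 between the siRNAs. It was also 4 for the overexpression effect minus the knockdown effect, and fewer with scramble library 3 as the sole control. With the ATRNL1 lentivirus it was 3. There it was 5 with no low-count filter, beside 8805 of 45095 genes, or with only the groups compared, beside 8168 of 22578 genes. Leaving out 1 library gave 2 to 3 genes for siRNA-1, 3 to 4 for siRNA-2, 2 to 4 between the siRNAs, 3 to 5 for the ATRNL1 lentivirus, 5 to 6 between the controls and 3 to 6 for the overexpression effect minus the knockdown effect. The cause was not tested. Over all genes, siRNA-1 called 2370, against 1421 to 2984 with 1 library left out. It called fewer with scramble library 1 or 3 as the sole control and slightly more with library 2. siRNA-2 called 4470, against 3113 to 4591 with 1 library left out, and fewer with any scramble library as the sole control. Between the siRNAs, 2499 were called, against 4914 with only the groups compared and 1432 to 1700 with 1 library left out. The ATRNL1 lentivirus called 9149, against 7715 to 9345 with 1 library left out. Between the controls, 15675 were called, against 14454 to 15437. For the overexpression effect minus the knockdown effect, 7879 were called, against 6820 to 8506 with 1 library left out. Fewer were called there with any scramble library as the sole control. A sole control is assumed to vary like the other groups. Scaling by library size only moved the median of all genes between the controls to -0.26, against -0.06 with TMM. Column names end in 1 to 3 in every group, and the labels do not say that these numbers pair libraries. Same-numbered libraries did not deviate together (correlations of -0.04 to 0.05 across genes), and in 1 comparison of 2 groups 2 of 3 correlated best with their own number, in the others 0 or 1. A fit with the replicate block by this number, chosen after seeing the data, called 2 of the 10 genes for siRNA-1, 4 for siRNA-2, 4 between the siRNAs and 3 for the ATRNL1 lentivirus, and changed no call of the 10 genes in any comparison. Over all genes it called 2336, 4422, 2474 and 9065 in these comparisons. Low counts limit KCND3, KCNIP2 and KCNN3, whose SE ran from 0.22 to 0.29 in comparisons of 2 groups.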
